A study of Mus musculus with 6 samples.

Results

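miR-21 and miR-31 were followed in natural regulatory T cells (CD4+CD25+) and conventional T cells (CD4+CD25-) of the mouse. They are the 2 members described here, picked by name (probes 1org-21 and 1org-31) from the 178 probes of a two-colour microRNA (miRNA) array, of which 171 were miRNA probes. A miRNA is a short RNA that represses messenger RNAs carrying a match to it. Each of 6 arrays compared total RNA of both populations directly, and the series' design text counts them as 3 biological replicates and their dye swaps. CD4+CD25+ RNA carried Cy5 on arrays 1, 3 and 5 and Cy3 on arrays 2, 4 and 6, and CD4+CD25- RNA carried the other dye. The sources used here give no strain, age, genotype, tissue, sorting method, treatment or number of animals. Nothing in the labels ties an array to a replicate or a replicate to an animal, so a p-value here speaks of the spread among these arrays only.

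Regulatory T cells restrain other T cells and are defined by the transcription factor Foxp3. miR-21 is made from a transcript that overlaps the gene Vmp1, is induced by inflammatory and T cell receptor signals, and is known for lowering the translation inhibitor Pdcd4. miR-31 is known from epithelium, muscle and activated T cells. In human regulatory T cells miR-31 was proposed to act on the FOXP3 messenger directly and lower it, and miR-21 to raise it indirectly. That work is background, and the arrays here measured no messenger RNA and no Foxp3.

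The mature sequences show what the probes are taken to detect and that the 2 miRNAs are unrelated. They are those of RefSeq on GRCm38.p6, 5′ to 3′, with the seed (bases 2 to 8, the part that chiefly selects targets) in capitals. The deposited table names neither arm nor probe sequence, and the arm that the plain name stands for was assumed. Both members matched a RefSeq entry through the gene identifier of the platform annotation. miR-21a-5p lies at chr11:86584120-86584141 on the minus strand, within the annotated span of the protein-coding gene Vmp1. miR-31-5p lies at chr4:88910614-88910635 on the minus strand, within the span of a long noncoding RNA gene, Gm49890, and the nearest protein-coding gene is Ifne. Exon or intron was not resolved here.
miR-21a-5p: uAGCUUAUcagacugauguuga
miR-31-5p: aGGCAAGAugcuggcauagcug
miR-21c: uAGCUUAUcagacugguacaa
The third line is shown because miR-21c, at chr8:128278188-128278208 on the minus strand, was the single other mature miRNA of the 1738 in the RefSeq table with the seed of miR-21. It has no probe of its own name on the array. The miR-31 seed occurred in miR-31-5p alone. miR-21a-5p and miR-31-5p had the same base at 4 of 22 positions and a longest shared run of 5 bases. GC content was 36.4% for miR-21a-5p and 54.5% for miR-31-5p.

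The hairpins that give rise to them are shown with the mature arm in capitals, since neither opposite arm (miR-21a-3p or miR-31-3p) had a probe of its own name.
Mir21a hairpin: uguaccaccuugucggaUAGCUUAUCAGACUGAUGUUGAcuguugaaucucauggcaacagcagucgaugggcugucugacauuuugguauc
Mir31 hairpin: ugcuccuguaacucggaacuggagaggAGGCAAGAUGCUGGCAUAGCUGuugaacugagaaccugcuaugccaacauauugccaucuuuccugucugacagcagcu
The mature arm takes bases 18 to 39 of the Mir21a hairpin, which is 92 bases long, and bases 28 to 49 of the Mir31 hairpin, which is 106 bases long.

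Values below are log2 ratios, CD4+CD25+ divided by CD4+CD25-, read from the deposited ratio as Cy5 over Cy3 and with the sign of arrays 2, 4 and 6 turned. The sources used here state neither the log base nor the direction, nor whether the swapped arrays had already been turned. Cy5 over Cy3 is the likely reading, since Cy5 is the second channel in the labels, and the opposite reading would turn every sign. Turned arrays of opposite dye correlated at -0.251 to 0.369 over the miRNA probes, against 0.521 to 0.622 among arrays 1, 3 and 5 and 0.901 to 0.918 among arrays 2, 4 and 6. The turned array medians were -0.085, -0.31 and 0.097 on arrays 1, 3 and 5 and 1.83, 1.29 and 1.82 on arrays 2, 4 and 6, so each value is given as deposited and relative to the median of the miRNA probes on its array. Signal over background is unknown, and the number of arrays limits the precision.

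miR-21 stood above 0 in CD4+CD25+ cells on 5 of 6 arrays as deposited. With CD4+CD25+ RNA in Cy5 its log2 ratio was 1.70, 1.33 and 1.61 on arrays 1, 3 and 5. With CD4+CD25+ RNA in Cy3 it was 1.18, -0.30 and 1.23 on arrays 2, 4 and 6. The orientations did not overlap: all 3 arrays with Cy5 lay above all 3 with Cy3, and array 4 was the single array below 0. The mean was 1.13 ± 0.530 (SD, n = 3 replicates), or 2.18-fold, with a 95% limma interval of 0.56 to 1.69 and an adjusted p of 0.00709.

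miR-31 was above 0 on 6 of 6 arrays as deposited, which held for 8.19% of the 171 miRNA probes. Its log2 ratio was 0.23, 0.16 and 0.32 on arrays 1, 3 and 5, and 2.09, 1.31 and 2.32 on arrays 2, 4 and 6. All 3 arrays with CD4+CD25+ RNA in Cy3 were high and all 3 with it in Cy5 were low, the reverse of miR-21. The mean was 1.07 ± 0.302 (SD, n = 3), or 2.10-fold, with a limma interval of 0.54 to 1.60 and an adjusted p of 0.00569.

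Both members were called higher as deposited, in a comparison where 67.3% of the 171 miRNA probes were called higher, 8.77% lower and 76% in either direction (a call is an adjusted p under 0.05 in each of the 6 ways to pair arrays of opposite dye). A call as deposited therefore sets neither miRNA apart from the bulk of the probes. By mean ratio miR-21 ranked 27 and miR-31 ranked 36 from the highest of the 171. The as-deposited calls of both ended when a pair of arrays was left out in 2 of 9 fits, those without arrays 3 and 2 (miR-21 1.06, adjusted p = 0.0621; miR-31 1.04, adjusted p = 0.0611) and without arrays 5 and 6 (0.98 and 0.95, adjusted p = 0.0841 for each). In those 2 fits limma called 0 and 2 of the 171 probes, with 98 and 85 at an unadjusted p under 0.05.

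Relative to the array median, miR-31 kept a small positive ratio on every array. It stood at 0.31, 0.47 and 0.22 on arrays 1, 3 and 5 and at 0.26, 0.021 and 0.50 on arrays 2, 4 and 6, so the orientations overlapped throughout. Of the 171 probes 5.85% were above 0 on 6 of 6 arrays in this way. Its mean was 0.30 ± 0.183 (SD, n = 3), or 1.23-fold, which did not pass (limma adjusted p = 0.268, interval -0.094 to 0.69). The interval holds no difference as well as an increase of up to 0.69 on the log2 scale.

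Relative to the array median, miR-21 split by dye. It stood at 1.79, 1.64 and 1.51 on arrays 1, 3 and 5 and at -0.65, -1.58 and -0.59 on arrays 2, 4 and 6. Every array with CD4+CD25+ RNA in Cy5 was far above the median probe and every array with it in Cy3 was below it, a split shown by 12.9% of the 171 probes. The mean of 0.35 ± 0.341 (SD, n = 3), or 1.28-fold, averages these opposite values and did not pass (limma adjusted p = 0.184, interval -0.040 to 0.74). In this comparison 5.26% of the probes were called higher, 22.8% lower and 28.1% in either direction.

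**Figure D1:**
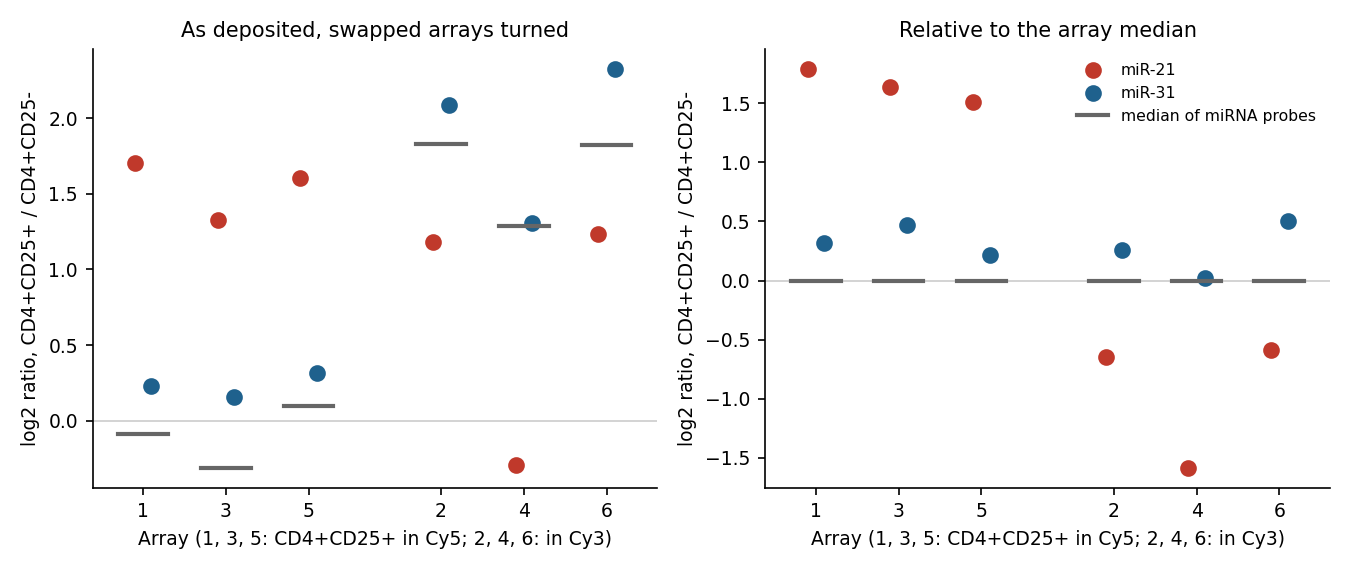
Log2 ratio (vertical axis, CD4+CD25+ divided by CD4+CD25-) for miR-21 (red) and miR-31 (blue) on each of the 6 arrays (horizontal axis), as deposited with arrays 2, 4 and 6 turned (left) and relative to the array median (right); each point is 1 array and grey bars are the median of the 171 miRNA probes. On the right miR-31 lies between 0.021 and 0.50 on all arrays, while miR-21 lies at 1.51 to 1.79 on arrays 1, 3 and 5 and at -1.58 to -0.59 on arrays 2, 4 and 6.

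Ranks within an array, which no centring or scaling of whole arrays can move, showed the same contrast. miR-21 ranked 6, 8 and 13 from the highest of 171 probes on arrays 1, 3 and 5, and 111, 129 and 114 on arrays 2, 4 and 6. miR-31 ranked 60, 42 and 65, and 70, 85 and 47. So miR-31 ran from rank 42 to rank 85, above the middle probe on every array though only just on array 4. miR-21 moved from near the top to below the middle.

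The dye dependence was tested with limma on the 6 arrays with a column for the dye, as the ratio with CD4+CD25+ RNA in Cy5 minus the ratio with it in Cy3. Relative to the array median the dye effect of miR-21 was 2.59 (SE 0.348, interval 1.85 to 3.32, adjusted p = 9.73e-06), the difference between means of 1.65 ± 0.139 and -0.94 ± 0.558 (SD, n = 3 arrays each). For miR-31 it was 0.073 (SE 0.318, interval -0.60 to 0.74, adjusted p = 0.871), from means of 0.33 ± 0.128 and 0.26 ± 0.240. A dye effect passed for 45.6% of the probes, 33.9% in the direction of miR-21 and 11.7% the other way, and miR-21 ranked 20 of 171 from the most positive. Centring moves the dye effect of every probe by the same amount, and without it the picture turned round. The dye effect of miR-31 was then -1.67 (adjusted p = 0.00133), beside 63.2% of probes called in that direction, and that of miR-21 was 0.84 and did not pass (adjusted p = 0.103), beside 7.02% called in its direction.

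Relative to the array median, each orientation fitted alone gave opposite calls for miR-21. It was called higher on the 3 arrays with CD4+CD25+ RNA in Cy5 (1.65, limma adjusted p = 0.00132, where 7.02% of probes were called higher). It was called lower on the 3 with it in Cy3 (-0.94, adjusted p = 0.00355, where 34.5% were called lower). miR-31 passed in neither (0.33, adjusted p = 0.472, and 0.26, adjusted p = 0.25). As deposited, miR-21 was called higher in each orientation, at 1.55 with CD4+CD25+ RNA in Cy5 (adjusted p = 0.00708, 7.02% of probes called higher) and 0.71 with it in Cy3 (adjusted p = 0.0406, 71.3% called higher). miR-31 as deposited was called higher with CD4+CD25+ RNA in Cy3 (1.91, adjusted p = 5.39e-08) and did not pass with it in Cy5 (0.23, adjusted p = 0.614). The sign of miR-21 relative to the other miRNAs thus differed between orientations, whereas the mean of miR-31 was above 0 in each. The cause of the dye dependence was not tested.

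**Figure D2:**
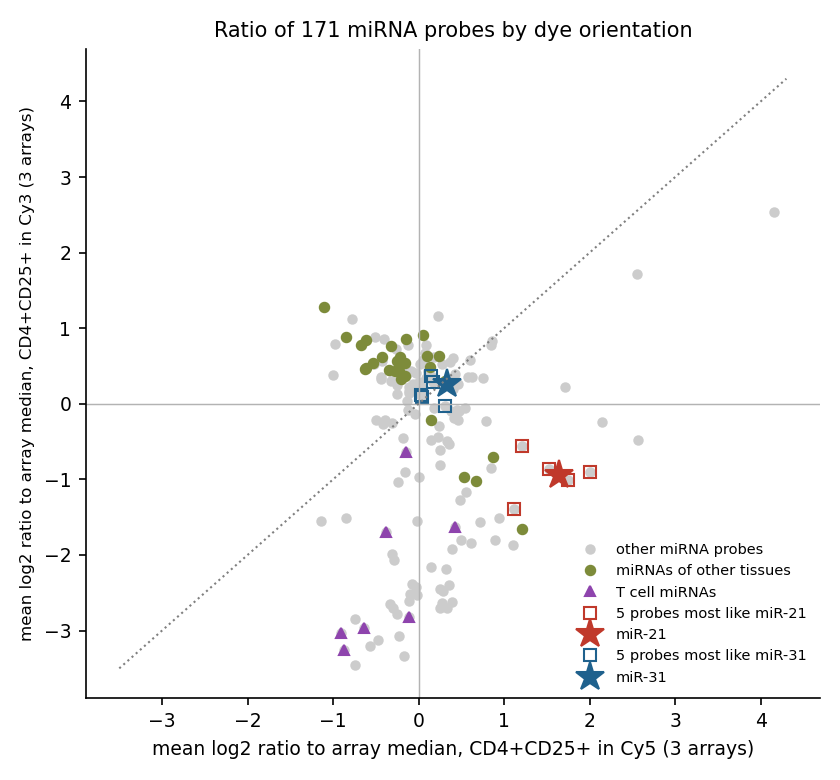
Mean log2 ratio relative to the array median with CD4+CD25+ RNA in Cy5 (horizontal axis, 3 arrays) and in Cy3 (vertical axis, 3 arrays) for each of the 171 miRNA probes; stars are miR-21 and miR-31, squares the 5 probes most like each, green points miRNAs of other tissues, triangles T cell miRNAs, and the dotted line marks equal values. miR-31 lies near the line at 0.33 and 0.26, whereas miR-21 lies at 1.65 and -0.94 among its most similar probes.

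The difference between the 2 members on an array does not depend on where the array is centred. miR-21 minus miR-31 was 1.47, 1.17 and 1.29 on arrays 1, 3 and 5 and -0.91, -1.61 and -1.09 on arrays 2, 4 and 6. miR-21 thus had the larger ratio on all arrays of the first orientation and the smaller on all of the second. The mean over replicates was 0.055 ± 0.254 (SD, n = 3), with an exact two-sided sign-flip p of 1, where 3 replicates cannot give a p below 0.25.

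If the deposited table already held the swapped arrays turned, both members would read differently. Once turned and relative to the array median, miR-223 had 4.15 with CD4+CD25+ RNA in Cy5 and 2.54 with it in Cy3. miR-142* had -0.87 and -3.25, so each of these probes kept its sign across orientations. Means of opposite sign in the orientations were found for 98 of the 171 probes. Whether the deposited arrays had already been turned was not tested. Without turning, the ratio of miR-21 relative to the array median was positive on 6 of 6 arrays, at 1.79, 1.64, 1.51, 0.65, 1.58 and 0.59 on arrays 1, 3, 5, 2, 4 and 6. The mean was then 1.29 ± 0.343 (SD, n = 3; limma adjusted p = 0.000259), where 34.5% of the probes were called higher. miR-31 would stand at 0.037 ± 0.183 (adjusted p = 0.907), with 3 of 6 arrays above 0. Both means relative to the array median follow by arithmetic from the dye effects given above and are no separate evidence. As deposited and not turned, miR-31 had -0.84 and was called lower (adjusted p = 0.02, where 51.5% of probes were called lower), and miR-21 had 0.42 and did not pass (adjusted p = 0.175).

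The scaling of the arrays moved a call of each member, on different scales. With limma's scale normalization, added after the data were seen, arrays 1, 3 and 5 were multiplied by 1.86, 1.63 and 2.25 and arrays 2, 4 and 6 by 0.493, 0.601 and 0.495. These factors equalize the median absolute value of the ratios before centring, so they carry the offsets of the arrays as well as their spread. The orientation in which miR-21 was high then weighed more, and miR-21 stood at 1.30 relative to the median and passed (adjusted p = 0.0274, where 5.26% of probes were called higher). miR-31 had 0.37 and did not pass (adjusted p = 0.529). Without centring, miR-21 kept its call (1.66, adjusted p = 0.0137) and miR-31 lost it (0.73, adjusted p = 0.119), where again 5.26% of probes were called higher. When the arrays were instead brought to an equal spread about their medians, the factors ran from 0.747 to 1.24, and neither passed relative to the median (miR-21 0.56, adjusted p = 0.102; miR-31 0.30, adjusted p = 0.37). Over all alternatives the adjusted p relative to the median ran from 0.000259 to 0.606 for miR-21 and from 0.000876 to 0.907 for miR-31.

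The zero point mattered for both. Against the median of 28 probes for miRNAs typical of embryonic stem cells, nervous system, liver, muscle and epithelium, miR-21 stood at 0.20 (limma adjusted p = 0.606) and miR-31 at 0.15 (adjusted p = 0.721), where 3.51% of probes were called higher. As deposited those 28 probes had a median of 0.86 and ran from 0.55 to 1.25, a span that holds both members. Against the mean of U6 and 4 tRNA probes, miR-21 stood at 1.59 (adjusted p = 0.00069) and miR-31 at 1.54 (adjusted p = 0.000876), where 73.7% of probes were called higher. In the fit of single arrays with a dye column, leaving out array 4 brought miR-21 to 0.51 relative to the median with an adjusted p of 0.0282 (8.77% of probes were then called higher), against 0.35 and 0.142 with all 6 arrays. That fit takes arrays and not replicates as its units. In the 9 fits of pair means without a pair of arrays, miR-21 did not pass relative to the median (lowest limma adjusted p = 0.0614).

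**Figure D3:**
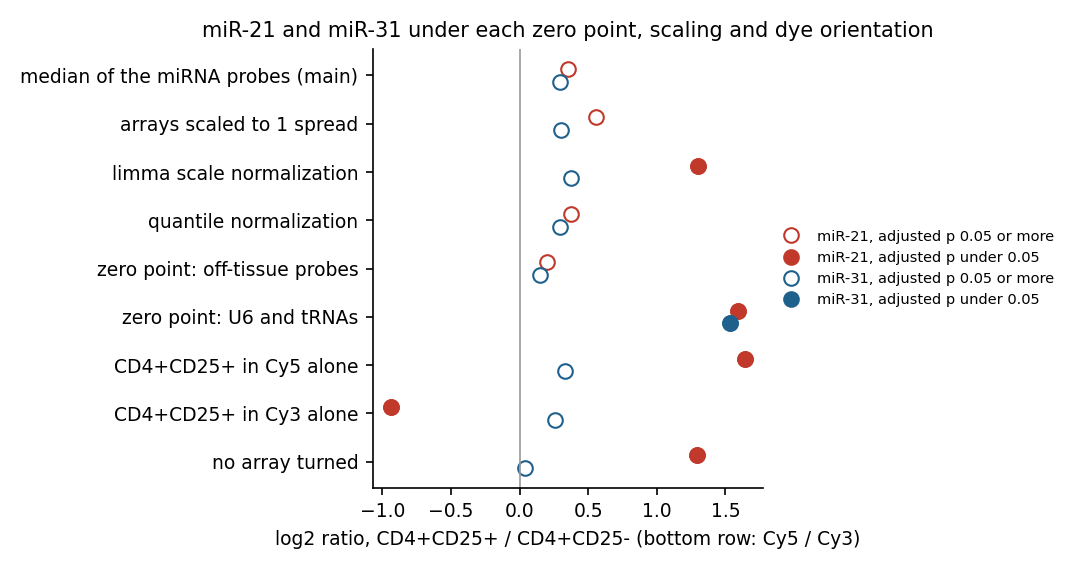
Log2 ratio of miR-21 (red) and miR-31 (blue) on the horizontal axis under 9 settings of zero point, scaling, dye orientation and turning (rows); filled points had an adjusted p under 0.05, and the bottom row reads Cy5 over Cy3 with no array turned. miR-21 ranges from -0.94 to 1.65, and miR-31 from 0.037 to 1.54, with only U6 and tRNA centring filled for miR-31.

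The probes most like each member were found by the root mean square difference of the values relative to the array median over the 6 arrays. For miR-21 they were miR-99b (0.239), miR-23b (0.353), miR-24 (0.476), miR-27a (0.524) and miR-22 (0.524), where the median over all other probes was 1.56. All 5 were positive with CD4+CD25+ RNA in Cy5, at 1.11 to 2.00, and negative with it in Cy3, at -1.39 to -0.55. None of the 5 passed relative to the array median. miR-23b, miR-24 and miR-27a belong to a pair of related miRNA clusters, and miR-99b is processed from a cluster with miR-125a.

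Mature sequences of 4 of these 5 are shown from RefSeq (GRCm38.p6) beside miR-21, seed in capitals, because their values ran closest to it. Each is the arm assumed for the plain name, and miR-23b had no entry under the name assumed for it.
miR-21a-5p: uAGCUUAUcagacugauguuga
miR-99b-5p: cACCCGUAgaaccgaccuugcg
miR-24-3p: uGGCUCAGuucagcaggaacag
miR-27a-3p: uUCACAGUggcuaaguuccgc
miR-22-3p: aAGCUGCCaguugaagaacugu
None of the 4 had the seed of miR-21, and the longest run of bases shared with miR-21a-5p was 3 for miR-99b-5p and miR-27a-3p, 4 for miR-24-3p and 5 for miR-22-3p. Likeness of values came without likeness of sequence in these 4.

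For miR-31 the most similar probes were miR-216 (0.28), miR-151 (0.292), miR-215 (0.297), miR-210 (0.298) and miR-135 (0.306), where the median over all other probes was 0.725. These sat close to the array median, from 0.061 for miR-151 to 0.26 for miR-216, and none passed. On the arms assumed for their names, the longest run shared with miR-31-5p was 7 bases for miR-216a-5p. It was 4 for miR-210-3p and miR-135a-5p and 3 for miR-215-5p, and none of these had the seed of miR-31. By Pearson correlation over the 6 arrays, the alternative measure, 1 of the 5 for miR-21 (miR-27a, 0.991) was again among the 5 highest. For miR-31 it was 2 of the 5 (miR-135, 0.865, and miR-151, 0.754). miR-216, the closest in value to miR-31, correlated with it at -0.346, miR-215 at 0.218 and miR-210 at 0.078. These probes were near miR-31 in value and did not follow it from array to array. These correlations include the difference between the dye orientations. What dye and cells each contribute to them was not tested. The probe with the highest correlation to miR-21 was miR-146 (0.999). It followed miR-21 from array to array at a higher level and passed relative to the median, at 0.95 ± 0.360 (SD, n = 3; limma adjusted p = 0.00161). miR-146 also differed by dye, at 2.14 with CD4+CD25+ RNA in Cy5 and -0.25 with it in Cy3, and was above 0 on 4 of 6 arrays. Next in correlation to miR-21 were miR-142* (0.998) and miR-29b (0.993), both called lower relative to the median.

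Of 12 other miRNAs proposed to act on Foxp3 or regulatory T cells, 4 were called higher relative to the array median, 2 lower and 6 not called, where 5.26% of all 171 probes were called higher and 22.8% lower. The list's median was 0.27, against 0.051 over all 171 probes. Higher were miR-223, known from myeloid cells, at 3.34 ± 0.654 (SD, n = 3), miR-125a at 0.97 ± 0.314, miR-146, induced by NF-kB, at 0.95 and miR-10a, from a Hox gene cluster, at 0.69 ± 0.195. Lower were miR-15a at -1.31 ± 0.392 and miR-16 at -0.62 ± 0.481, sister miRNAs that restrain the cell cycle. miR-21 and miR-31 lay between, next to miR-155 (0.46), a target of Foxp3, and miR-24 (0.33), which like miR-210 (0.14) and miR-145 (0.21) was proposed to lower Foxp3. miR-126 had 0.050 and miR-182, which promotes clonal growth of helper T cells, -0.088. These ratios average both dye orientations. With CD4+CD25+ RNA in Cy5 and in Cy3, miR-16 stood at 0.61 and -1.84, miR-15a at -0.096 and -2.51, and miR-146 at 2.14 and -0.25. A positive dye effect passed for 6 of the 12, beside 33.9% of all probes, and a negative one for 1, beside 11.7%. As deposited 10 of the 12 were called higher and 0 lower, where 67.3% of all probes were called higher. The list was drawn up from the literature, may include work on these very arrays, and cannot serve as independent evidence.

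Of 14 miRNAs known to be induced by T cell activation, miR-21 and miR-31 among them, 14 were called higher as deposited, where 67.3% of all probes were. Relative to the array median 2 were called higher, miR-214 (2.14 ± 1.35, SD, n = 3) and miR-146, none was lower and 12 were not called, beside 5.26% of all probes called higher; the list's median was 0.22. The dye split of miR-21 was not general to the list: its dye effect of 2.59 was the top of a range that began at -1.04 (miR-96) around a median of 0.057, and 2 of the 14, miR-21 and miR-146, had a positive dye effect past the test, beside 33.9% of all probes. The neighbours of miR-21 and miR-31 in order of ratio were miR-222 (0.41 ± 0.235) above and miR-210 (0.14 ± 0.146) below, and the steps between these 4 were smaller than the SD of miR-21.

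**Figure D4:**
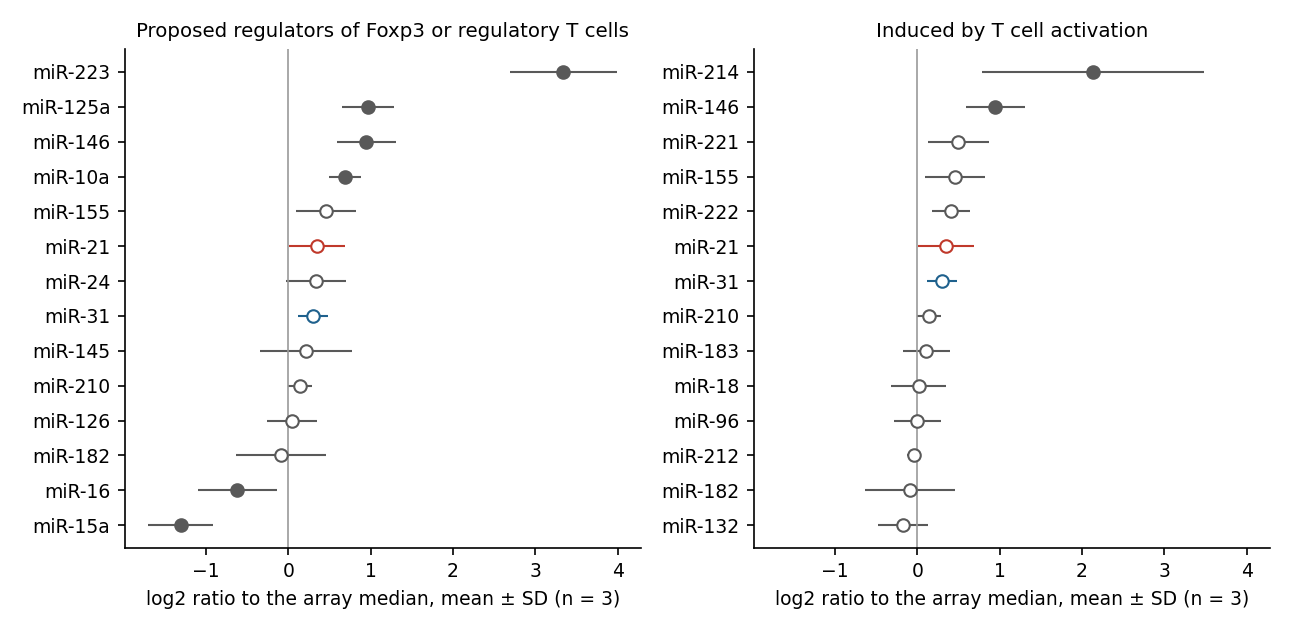
Log2 ratio relative to the array median (horizontal axis), mean ± SD over 3 replicates (the largest SD over the 6 pairings), for the proposed regulators with miR-21 and miR-31 added (left) and the activation-induced miRNAs (right); filled points passed the test and open points did not. miR-21 (red, 0.35) and miR-31 (blue, 0.30) lie below miR-155 and above miR-210 in both panels.

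Markers of cell types were read on the same scale. The arrays give ratios and no levels, so no marker shows whether a cell type was present, and fewer cells of a type and less of an RNA per cell cannot be told apart. Of 7 T cell probes (miR-150, the miR-142 strands and the miR-181 family) 6 were called lower relative to the array median, beside 22.8% of all probes, and the dye effects of the 7 ran from 0.49 to 2.71, the direction of miR-21. The myeloid probe miR-223 was higher, as was 1 of 7 endothelial or stromal probes (miR-214), beside 5.26% of all probes called higher. The erythroid probe miR-144 did not pass (-0.079). The probe miR-126*, left out of the stromal list though miR-126 was on it, was called higher (0.59 ± 0.338, SD, n = 3). miR-199b, also left out, was not called (0.32). miR-21 is also made by myeloid and stromal cells, and the part of other cell types in these ratios was not tested.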

How the data were processed

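The deposited table gives 1 log ratio of the 2 channels for each of 178 probes on each of 6 arrays, with 0 missing values. The values were taken as log2 values made by the authors; the sources used here give no log base, background correction, normalization, software or genome build. Depth has no meaning for such ratios. The 171 probes named for miRNAs were tested together, leaving out 7 probes for small nuclear RNAs or tRNAs. Arrays with CD4+CD25+ RNA in Cy3 were multiplied by -1.

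limma (version 3.58.1, R 4.3.3), lmFit and eBayes, was fitted to 3 values per probe, the means of arrays paired across orientations, for all 6 pairings, with Benjamini-Hochberg adjustment over 171 probes. The largest adjusted p, SD and interval over the pairings are given. The pooled variance dominated, so p-values do not follow from each SD. The dye effect used 6 arrays with a dye column, and the difference of the members an exact sign-flip test. Steps were tested on simulated data with independent noise and no offset between array medians. The medians of these arrays do differ, so the simulation does not cover that. Named probes were miR-21 and miR-31, the 5 most similar to each, all measured members of the proposed-regulator list and up to 4 of the activation list; miR-96, miR-144 and the marker probes named were chosen after their values were seen. Members and lists were chosen with earlier results of these data known. Alternatives covered scaling, zero point, pairing, orientation, turning, the variance estimate, the probes tested and leaving out arrays.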

Additional observations from a re-analysis of the deposited data

Results flagged for a closer look

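As deposited, miR-21 on array 4 (-0.30) lay apart from the other 5 arrays (1.18 to 1.70), with a gap of 0.738 of the whole range. The threshold this gap passed is one that chance passes in about 1 in 20 groups. The ratio of miR-31 as deposited differed between the dye orientations by -1.67 on the log2 scale (limma adjusted p = 0.00133). Relative to the array median its difference was 0.073 and did not pass (adjusted p = 0.871). The ratio of miR-21 relative to the array median differed between the orientations by 2.59 (adjusted p = 9.73e-06), with every array of one orientation above 0 and every array of the other below 0.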

How the results depend on the processing

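As deposited, miR-21 was not called with no array turned (0.42), and miR-31 was not called on the arrays with CD4+CD25+ in Cy5 alone (0.23) or with limma scale normalization (0.73) and reversed with no array turned (-0.84). Relative to the median, miR-21 passed on the arrays with CD4+CD25+ in Cy5 alone (1.65), with no array turned (1.29), with U6 and tRNA centring (1.59) and with limma scale normalization (1.30), and reversed on those with it in Cy3 (-0.94); miR-31 passed with U6 and tRNA centring (1.54). The count called as deposited, 130, became 19 on the arrays with Cy5 alone and 13 with limma scale normalization. The count relative to the median, 48, became 18 with Cy5 alone, 98 with Cy3 alone, 77 with no array turned, 19 with quantile normalization, 127 with U6 and tRNA centring and 17 with limma scale normalization. The difference of miR-21 and miR-31 was 1.31 with Cy5 alone, -1.20 with Cy3 alone and 1.26 with no array turned. After centring, which moves the dye effect of every probe by the same amount, that of miR-21 became 2.59. That of miR-31 became 0.073 and did not pass (limma adjusted p = 0.871). Causes were not tested.

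Leaving out arrays gave 0.95 to 1.43 for miR-21 and 0.95 to 1.24 for miR-31 as deposited, 0.23 to 0.55 and 0.20 to 0.39 relative to the median, 0 to 142 and 21 to 56 calls, -0.059 to 0.19 for the difference, and 0.34 to 1.10 and -1.97 to -1.46 for the dye effects of miR-21 and miR-31. The labels tie no array to a replicate, so no single pairing could be chosen; with each of the 6 pairings fitted on its own, the members' calls were the same as with the largest p. Signal over background is unknown, so no probe could be marked as dim.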
